A study of Mus musculus with 200 samples.

Results

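Lrp2, Cubn, Amn and Dab2 encode the receptors and the adaptor of a shared endocytic route, and their RNA was followed through mouse peri-implantation embryos and differentiating embryoid bodies. The 4 genes were found by their symbols in the gene column of each expression table, as 4 of 25006 genes in 4 tables and 4 of 25229 genes in the other 3. The table of embryoid bodies (EB, aggregates of embryonic stem cells that differentiate in culture) carries no gene names, and its rows were read in the order of the screen table. The study asked what removing chromatin and transcription regulators does to gene expression around implantation, and it measured RNA by Smart-seq2, a full-length method for small samples, in 200 libraries of 70 groups.

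The embryo groups were the following. Epiblast (Epi) was taken at E5.0 from embryos treated with GSK-J4, a compound that blocks Kdm6a and Kdm6b, enzymes that remove H3K27 methylation, and from wild-type controls, with a similar pair of groups at E4.5. Epi and primitive endoderm (PrE) at E5.0 came from Suz12 Eed double knockout embryos and from wild-type controls. Epi at E5.0 came from 40 groups of a knockout screen in 10 batches, each batch with wild-type controls. Zbtb17 was addressed at E5.0 with dTAG, a ligand that triggers degradation of a tagged protein, and at E4.5 in libraries whose title says knockout and whose treatment label says dTAG. The EB groups were Zbtb17 knockout and wild type on days 0, 1, 2 and 3. Embryo knockouts were made in the embryo with C-CRISPR, which injects several guides against 1 gene, so no embryo group is a clonal line. EB knockout titles share a tag. Whether those libraries come from a clonal line is not given in the sources used here. Blastocysts were grown on in culture, the labels state about 10 to 100 cells a library, and most groups held 3 libraries, against 2 in the EB groups, in the screen's batch 7 controls and in the Ascl2 knockout. In batch 8 the titles say stage 6.0 and the stage label says E5.0.

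Values are TPM, a relative abundance of transcripts corrected for transcript length, so that levels of different genes can be set side by side. Read totals were not analysed here. The genes at 1 TPM or more numbered 3986 to 4952 in the Zbtb17 E4.5 libraries, 7236 to 11315 in the screen and 9465 to 11279 in the other embryo tables. Tables were treated as normalized separately, and tests were made within a table. In the screen, 40 pairs of a targeted gene and its batch were compared with controls. Bend3 stood in batches 7 and 8, Hdac1 and Hdac3 were counted separately, and Aurkb was not compared. Of the 40, 16 were below the controls in every library, 16 overlapped them and 8 were above them in every library. The 16 that overlapped were Ssrp1, Ets2, Lmo2, Atrx, Cbx2, Cbx7, Jarid2, Otx2, Kdm6b, Zfp57, Zbtb17, Wt1, Chd4, Gtf2b, Junb and Mbd3. RNA shows no clear loss of the target in them. Those 8 were Nelfb, Snai1, Ascl2, Cxxc1, Myc, Ovol2, Zfp281 and, in batch 7, Bend3, whose libraries are given below by their labels. The Epi label was not matched by an epiblast profile in most of the screen: in controls of all batches but batch 8, a list of 15 trophectoderm and extraembryonic ectoderm genes summed to 2200 to 5140 TPM, against 486 to 1860 TPM for 10 epiblast genes. The E5.0 Epi controls of the GSK-J4 and dTAG tables had the same order, with the trophectoderm list at 4270 to 4540 and 2810 to 3040 TPM and the epiblast list at 1830 to 1870 and 1610 to 1650 TPM. In batch 8 controls the trophectoderm list summed to 369 to 552 TPM, and the epiblast list to 3080 to 3390 TPM.

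Lrp2 (megalin) is a giant member of the lipoprotein receptor family that takes up lipoproteins, vitamin carriers and many other proteins from the outside of epithelial cells. Cubn (cubilin) binds further ligands, among them apolipoprotein A1 and the intrinsic factor complex of vitamin B12, but has no membrane anchor of its own. Amn (amnionless) is a small transmembrane protein that carries cubilin to the cell surface, and Dab2 is a cytoplasmic adaptor that links receptor tails to clathrin and its AP-2 adaptor. In the early mouse embryo this machinery is a hallmark of the visceral endoderm, the nutritive layer that arises from the primitive endoderm and feeds the epiblast.

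The members are located on 3 chromosomes of mm10 (GENCODE vM21): Lrp2 at chr2:69424340-69586065 on the minus strand, Cubn at chr2:13276338-13491813 on the minus strand, Amn at chr12:111271095-111276426 on the plus strand and Dab2 at chr15:6299788-6440712 on the plus strand. Cubn overlaps the plus-strand gene Gm13270, and Dab2 overlaps the minus-strand genes Gm16311 and Gm18888. Those 3 genes are not rows of the tables, and whether reads from them were counted to the member is not given in the sources used here. Promoters are shown because the members moved together in several comparisons. Each is 300 bases of RefSeq GRCm38.p6, from 250 bases before to 50 after a start site, 5′ to 3′ on the gene's strand, with CG dinucleotides in capitals and, in the first Dab2 promoter, the letters TTATCT also in capitals.
Lrp2 (chr2:69585980-69586279, minus strand): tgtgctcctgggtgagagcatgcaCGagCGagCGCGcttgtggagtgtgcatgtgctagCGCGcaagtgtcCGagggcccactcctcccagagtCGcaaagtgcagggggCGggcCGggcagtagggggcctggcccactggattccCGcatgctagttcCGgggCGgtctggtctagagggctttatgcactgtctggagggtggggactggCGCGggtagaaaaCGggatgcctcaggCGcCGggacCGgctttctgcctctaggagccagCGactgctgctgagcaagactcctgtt
Cubn (chr2:13491827-13492126, minus strand): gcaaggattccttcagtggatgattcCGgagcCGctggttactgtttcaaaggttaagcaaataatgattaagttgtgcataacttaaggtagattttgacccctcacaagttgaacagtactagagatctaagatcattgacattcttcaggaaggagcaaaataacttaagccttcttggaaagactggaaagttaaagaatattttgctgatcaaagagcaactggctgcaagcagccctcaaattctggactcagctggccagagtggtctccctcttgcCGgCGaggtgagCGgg
Amn (chr12:111270846-111271145, plus strand): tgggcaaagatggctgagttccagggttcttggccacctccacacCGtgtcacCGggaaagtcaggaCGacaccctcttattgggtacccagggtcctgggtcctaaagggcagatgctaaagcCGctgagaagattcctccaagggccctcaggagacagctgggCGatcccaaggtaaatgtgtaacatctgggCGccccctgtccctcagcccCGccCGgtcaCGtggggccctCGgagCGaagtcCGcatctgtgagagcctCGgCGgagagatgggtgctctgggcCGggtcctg
Dab2, first promoter (chr15:6299539-6299838, plus strand): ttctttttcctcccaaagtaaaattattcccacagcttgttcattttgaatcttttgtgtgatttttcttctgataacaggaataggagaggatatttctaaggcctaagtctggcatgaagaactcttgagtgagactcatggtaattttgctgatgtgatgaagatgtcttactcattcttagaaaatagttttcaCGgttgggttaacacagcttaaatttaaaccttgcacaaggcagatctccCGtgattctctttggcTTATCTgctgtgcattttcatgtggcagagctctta
Dab2, second promoter (chr15:6386498-6386797, plus strand): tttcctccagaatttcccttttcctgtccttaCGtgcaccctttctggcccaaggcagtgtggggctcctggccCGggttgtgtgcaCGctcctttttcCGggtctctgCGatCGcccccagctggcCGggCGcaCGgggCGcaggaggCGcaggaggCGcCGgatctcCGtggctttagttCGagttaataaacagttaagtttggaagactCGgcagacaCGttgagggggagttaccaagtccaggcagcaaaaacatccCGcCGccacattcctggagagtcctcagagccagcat
The promoters differed in CG content. Lrp2 held 20 CG dinucleotides, Amn 15 and the second Dab2 promoter 19, whereas Cubn held 5 and the first Dab2 promoter 2, beside a median of 7 over 32851 promoters. The windows were searched on both strands for 3 motifs: AGATAA, bound by GATA factors and present in 11.2% of promoters; TGTTTAC, bound by forkhead factors and present in 3.65%; and the HNF1 consensus, present in 0.0609%. The only match was AGATAA on the opposite strand of the first Dab2 promoter, starting at position 15 after the start site and printed there as TTATCT. With a single match no motif overlapped another, and a match describes letters and not binding.

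In wild-type embryos at E5.0 the members were abundant in PrE and scarce in Epi. Of 11748 genes tested in that comparison, 56.5% passed, 18.5% as higher in PrE, and all 4 members were among the higher ones. Lrp2 had 118, 115 and 131 TPM in PrE, against 1.893, 1.75 and 2.195 TPM in Epi. Cubn had 116, 126 and 131 TPM in PrE, against 0.431, 0.444 and 0.486 TPM in Epi. The groups lay far apart for both receptors, and both stood at nearly the same level in PrE. Cubn was under 1 TPM in every Epi control and entered the test only through PrE, the group in which it was called higher.

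Amn had 98.2, 86.0 and 73.1 TPM in PrE, against 1.51, 5.04 and 1.68 TPM in Epi. Dab2 had 667, 652 and 627 TPM in PrE, against 6.54, 9.49 and 9.42 TPM in Epi. Dab2 was thus the most abundant of the 4 in both tissues, and no PrE library overlapped an Epi library for any member. On the log2(TPM + 1) scale the differences were 5.40 for Lrp2, 6.45 for Cubn, 4.60 for Amn and 6.10 for Dab2, with limma adjusted p of 3.56e-10, 8.11e-11, 1.17e-07 and 4.5e-11 in that order. PrE controls 1 and 2 were nearly identical (r = 0.9958, the next pair at 0.9782) and were counted as 1 sample, which left 2 PrE controls against 3 Epi controls. The median change of all genes was -0.46, so these differences are larger relative to it. In bulk samples, fewer cells of a type and less RNA per cell cannot be told apart, here and in each comparison that follows.

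Other genes of the route were split in the same comparison. Lrpap1, the chaperone that escorts Lrp2 through the secretory pathway, averaged 1466 TPM in PrE and 47.7 TPM in Epi, and Myo6, a motor that moves endocytic vesicles inward, averaged 74.9 TPM in PrE and 1.23 TPM in Epi. Of 13 chaperone and adaptor genes tested, 6 rose and 5 fell in PrE, with Dab1 among the lower ones at 3.73 TPM, against 25.8 TPM in Epi. The lipoprotein receptor Scarb1 fell and averaged 2.16 TPM in PrE and 16.3 TPM in Epi. The clathrin heavy chain Cltc averaged 414 TPM in PrE and 35.2 TPM in Epi, while 3 of 12 coat genes rose and 4 fell. Of 18 endosomal and lysosomal genes 11 rose, with the protease Ctsl at 1159 TPM in PrE and 57.2 TPM in Epi. Of 12 ligand genes 8 rose and 1 fell, and Ttr, Apom and Apoa1 averaged 1423, 1075 and 1007 TPM in PrE, against 3.16, 6.83 and 12.9 TPM in Epi.

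The PrE label was matched by its markers, and the Epi label in part. Of 20 other genes of primitive and visceral endoderm 19 rose in PrE, and the list summed to 8810 to 10000 TPM there, against 437 to 643 TPM in Epi. Gata6 had 16.2 to 26.8 TPM in PrE and was listed at 0 in every Epi control, and Pou5f1 had 0.144 to 4.99 TPM in PrE and 43.4 to 138 TPM in Epi. The Epi controls also held trophoblast RNA: the trophectoderm list summed to 625 to 893 TPM in PrE and 1640 to 1780 TPM in Epi, beside an epiblast list of 315 to 345 TPM in PrE and 1960 to 2590 TPM in Epi, and 9 of 15 trophectoderm genes fell in PrE and 2 rose. Sox2 and Nanog were at 1.93 to 4.71 TPM in Epi, and Elf5 and Bmp4, markers of extraembryonic ectoderm, at 69.6 to 95.7 TPM. The part of these markers in the members' difference was not tested. The ligand list shares 8 of its 14 genes with that endoderm list.

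**Figure D1:**
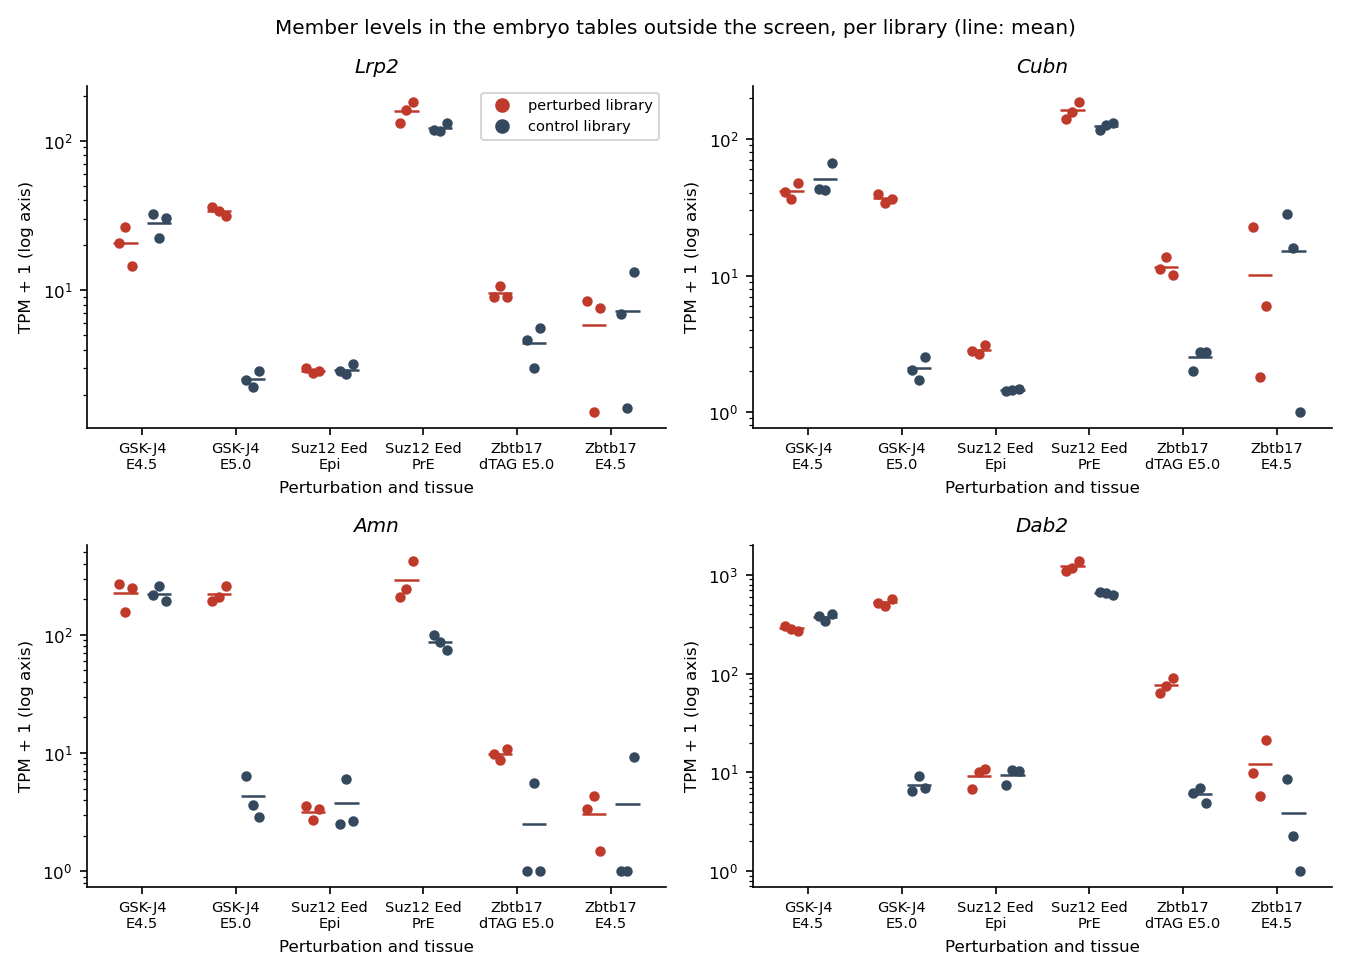
Level of each member in every library of the embryo tables outside the screen, as TPM + 1 on a log axis, with perturbed libraries in red to the left of control libraries in dark grey and a line at the mean. The members stood between 73.1 and 667 TPM in PrE controls and at 9.49 TPM or less in Epi controls of the same table.

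GSK-J4 at E5.0 went with higher levels of all 4 members in Epi. The drug was given at 50 µM from the E3.5 blastocyst, per the labels. In this comparison 28.3% of 10681 genes passed, 16.6% as higher, and the 4 members were among them. Lrp2 had 35.0, 33.0 and 30.4 TPM with GSK-J4, against 1.52, 1.27 and 1.87 TPM in controls. Cubn had 38.8, 33.1 and 35.3 TPM with GSK-J4, against 1.05, 0.712 and 1.52 TPM in controls. The 3 treated libraries lay close together for both receptors and far above every control.

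Amn, the partner of Cubn, had 194, 209 and 259 TPM with GSK-J4, against 5.43, 2.63 and 1.89 TPM in controls. Dab2 had 523, 486 and 571 TPM with GSK-J4, against 5.46, 8.24 and 5.88 TPM in controls. No library of either group overlapped the other for these genes. The log2 changes were 3.73 (SE 0.327) for Lrp2, 4.15 (SE 0.346) for Cubn, 5.76 (SE 0.325) for Amn and 6.15 (SE 0.185) for Dab2. The limma adjusted p was 0.000195 for Lrp2, 0.000159 for Cubn, 2.41e-05 for Amn and 1.76e-06 for Dab2. The median change of all genes was 0.12, and -0.145 after quantile normalization.

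The receptors' chaperone and several steps after uptake moved in the same direction. Lrpap1 averaged 1678 TPM with GSK-J4 and 59.3 TPM in controls (log2 change 4.81, limma adjusted p = 9.24e-07), and Myo6 averaged 20.4 TPM with GSK-J4 and 0.444 TPM in controls. In all, 4 of 11 chaperone and adaptor genes, 12 of 18 endosomal genes and 7 of 10 ligand genes rose, and 1 ligand gene fell. Ctsl averaged 995 TPM with GSK-J4 and 108 TPM in controls, and the lysosomal membrane protein Lamp2 130 TPM with GSK-J4 and 13.9 TPM in controls. Among ligands, Apoa1 averaged 164 TPM with GSK-J4 and 0.486 TPM in controls, and Rbp4, the carrier of retinol, 52.0 TPM with GSK-J4 and 2.08 TPM in controls. The coat was mixed, with 5 of 12 genes higher and 1 lower: Cltc averaged 88.9 TPM with GSK-J4 and 21.0 TPM in controls, whereas Clta averaged 270 TPM with GSK-J4 and 454 TPM in controls. None of 5 lipoprotein receptors tested passed, and their median log2 change was 0.09.

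Endoderm markers moved with these genes. Of 15 genes of primitive and visceral endoderm tested 14 rose, and the list summed to 5630 to 6560 TPM with GSK-J4 and to 833 to 854 TPM in controls. Gata6, Hnf4a, Apob and Fgb were listed at 0 in every control. Of 9 parietal endoderm genes 8 rose (2930 to 3140 TPM with GSK-J4, 156 to 182 TPM in controls). The epiblast list summed to 785 to 878 TPM with GSK-J4 and 1830 to 1870 TPM in controls, with 3 of 9 genes higher and 5 lower, while Pou5f1 itself had 98.8 to 126 TPM with GSK-J4 and 55.3 to 68.2 TPM in controls. Trophoblast markers moved as well: of 15 trophectoderm genes 6 fell and 1 rose (3160 to 3330 TPM with GSK-J4, 4270 to 4540 TPM in controls), and all 4 giant cell genes tested fell (listed at 0 in every library with GSK-J4, 35.1 to 41.2 TPM in controls). Elf5 had a median of 16.5 TPM with GSK-J4 and 66.5 TPM in controls. The part of these markers in the members' change was not tested.

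At E4.5 none of the members passed with GSK-J4, where 1.15% of 9982 genes did. Here the controls labelled Epi already held high levels. Lrp2 had 19.8, 25.4 and 13.5 TPM with GSK-J4, against 31.1, 21.2 and 29.3 TPM in controls. Cubn had 39.7, 35.0 and 46.5 TPM with GSK-J4, against 41.7, 41.4 and 65.6 TPM in controls. Amn had 268, 154 and 250 TPM with GSK-J4, against 216, 256 and 194 TPM in controls. The groups overlapped for these 3 genes, with log2 changes of -0.48 (SE 0.501) for Lrp2, -0.26 (SE 0.376) for Cubn and -0.02 (SE 0.237) for Amn. Dab2 had 305, 286 and 270 TPM with GSK-J4, against 385, 341 and 400 TPM in controls. Its treated libraries were all below the controls, but the log2 change of -0.39 (SE 0.153) did not pass (limma adjusted p = 0.342). The endoderm list summed to 4730 to 5260 TPM with GSK-J4 and 3680 to 4130 TPM in these controls. The Epi label was thus matched only in part. The controls had Sox17 at 45.4 to 78.7 TPM, Gata4 at 21.1 to 62.1 TPM and Gata6 at 6.7 to 41.6 TPM. Pou5f1 stood at 446 to 608 TPM in the same libraries. The part of these markers in the members' levels was not tested. Of the pathway genes Ctsl rose to 1761 TPM with GSK-J4, against 743 TPM in controls, and Lrpap1 to 1839 TPM with GSK-J4, against 1326 TPM in controls. The difference between the stages was not tested, since the stages stand in separate tables.

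The Suz12 Eed double knockout removes core subunits of Polycomb repressive complex 2, which places the H3K27 methyl mark. Both targets were below the controls in all libraries: Eed averaged 55.5 TPM in knockout PrE and 164 TPM in control PrE, and Suz12 15.1 TPM in knockout PrE and 29.0 TPM in control PrE. In PrE, 2 of the 4 members rose, where 26.7% of 11354 genes passed and 21.6% were higher. Amn had 207, 242 and 426 TPM in knockout PrE, against 98.2, 86.0 and 73.1 TPM in control PrE. Dab2 had 1085, 1185 and 1399 TPM in knockout PrE, against 667, 652 and 627 TPM in control PrE. All knockout libraries exceeded all controls for both genes. The log2 change was 1.74 (SE 0.381, limma adjusted p = 0.00375) for Amn and 0.92 (SE 0.226, limma adjusted p = 0.00784) for Dab2. Without PrE control replicate 3 a single averaged control sample was left, assumed to vary like the other groups, and the changes were 1.579 for Amn (adjusted p = 0.0743) and 0.882 for Dab2 (adjusted p = 0.0848). The median change of all genes was 0.40, and 0.024 after quantile normalization, where the changes were 1.51 for Amn and 1.11 for Dab2.

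The receptors themselves did not pass in PrE. Lrp2 had 129, 159 and 182 TPM in knockout PrE, against 118, 115 and 131 TPM in control PrE, and the lowest knockout library lay just below the highest control. Cubn had 139, 157 and 187 TPM in knockout PrE, against 116, 126 and 131 TPM in control PrE, with no overlap. Their log2 changes were 0.33 and 0.34, below the median of all genes, with limma adjusted p of 0.353 for Lrp2 and 0.348 for Cubn. The endoderm list had 4 of 20 genes higher and summed to 10300 to 12300 TPM in knockout PrE and 8810 to 10000 TPM in control PrE, and the trophectoderm list summed to 2190 to 2330 TPM in knockout PrE and 625 to 893 TPM in control PrE. The part of these lists in the result was not tested. Among pathway genes, Scarb1 rose, and 5 of 11 ligand genes rose, with Clu at 55.2 TPM in knockout PrE and 2.46 TPM in control PrE. Of 12 coat genes 6 rose and 3 fell.

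In Epi of the same embryos, Cubn was the 1 member called, where 9.19% of 11250 genes passed and 4.48% were higher. It had 1.80, 1.67 and 2.10 TPM in knockout Epi, against 0.431, 0.444 and 0.486 TPM in control Epi. The libraries did not overlap, at levels far below those of PrE. Cubn reached the 1 TPM filter only through the knockout libraries, the group in which it was called higher. With the filter at 5 TPM it was not tested. The log2 change was 0.97 (SE 0.234, limma adjusted p = 0.0169), and with the replicate number as a block, which these libraries supported, the adjusted p was 0.0862, and in a fit of the compared groups alone it was 0.101. Lrp2 (2.00, 1.80 and 1.87 TPM in knockout Epi, against 1.893, 1.75 and 2.195 TPM in control Epi), Amn (2.53, 1.69 and 2.36 TPM in knockout Epi, against 1.51, 5.04 and 1.68 TPM in control Epi) and Dab2 (5.73, 9.07 and 9.71 TPM in knockout Epi, against 6.54, 9.49 and 9.42 TPM in control Epi) overlapped and did not pass. Trophoblast markers were higher in knockout Epi: the trophectoderm list summed to 6180 to 7230 TPM there and 1640 to 1780 TPM in control Epi, all 5 giant cell genes tested rose, and the endoderm list summed to 565 to 605 TPM in knockout Epi and 437 to 643 TPM in control Epi. Their part in the Cubn value was not tested.

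The knockout effect differed between the tissues for 2 members, where 19.1% of 13172 genes passed that test and 15% were higher. The log2 change in PrE minus that in Epi was 1.86 for Amn (limma interaction, adjusted p = 0.0195) and 0.98 for Dab2 (adjusted p = 0.0357), while it was 0.35 for Lrp2 (adjusted p = 0.488) and -0.63 for Cubn (adjusted p = 0.212). Both calls ended with no filter and with a pseudocount of 0.1 (adjusted p 0.0535 to 0.0721), and that of Dab2 also with library weights (0.0656). The median of all genes was 0.452 in this difference, and 0.041 after quantile normalization.

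Degradation of Zbtb17 (Miz1), a DNA-binding zinc finger protein, was followed by higher Cubn, Amn and Dab2 in E5.0 Epi, where 11.7% of 10658 genes passed and 7.2% were higher. Zbtb17 RNA averaged 6.21 TPM with dTAG and 3.11 TPM in controls, and the ligand acts on the protein, so the RNA does not check the treatment. Cubn had 10.1, 12.7 and 9.08 TPM with dTAG, against 1.01, 1.77 and 1.77 TPM in controls. Dab2 had 63.4, 73.5 and 89.7 TPM with dTAG, against 5.17, 5.90 and 3.94 TPM in controls. Both genes were well separated, with log2 changes of 2.21 (SE 0.409, limma adjusted p = 0.00652) for Cubn and 3.67 (SE 0.263, limma adjusted p = 2.23e-05) for Dab2. Amn had 8.86, 7.81 and 9.78 TPM with dTAG, against 0, 4.56 and 0 TPM in controls. It passed with a log2 change of 2.47 (SE 0.659, limma adjusted p = 0.0371), but in 5 of 6 fits that left out 1 library it did not, with adjusted p up to 0.129, nor with no filter (0.162), a pseudocount of 0.1 (0.0793) or quantile normalization (0.0623). Lrp2 had 7.98, 9.66 and 8.06 TPM with dTAG, against 3.68, 2.02 and 4.59 TPM in controls. Every treated library was above every control, yet the log2 change of 1.15 (SE 0.409) did not pass (limma adjusted p = 0.105).

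Pathway and marker genes moved beside them. Lrpap1 averaged 198 TPM with dTAG and 60.7 TPM in controls, Ctsl 209 TPM with dTAG and 59.4 TPM in controls, and Ttr 141 TPM with dTAG and 3.95 TPM in controls. Counts of higher genes were 3 of 10 for chaperone and adaptors, 3 of 11 for the coat, 5 of 17 for endosomes, 4 of 10 for ligands and 1 of 6 for lipoprotein receptors. Of 12 endoderm genes 7 rose, with sums of 2320 to 2430 TPM with dTAG and 706 to 842 TPM in controls. Apoa1, which is on both the endoderm and the ligand list, went the other way. It had 3.58 to 6.54 TPM with dTAG and 9.37 to 12.8 TPM in controls. Of 14 trophectoderm genes 10 rose (3780 to 4200 TPM with dTAG, 2810 to 3040 TPM in controls) and 4 of 5 giant cell genes fell (25.1 to 31.2 TPM with dTAG, 539 to 661 TPM in controls). Their part in the members' values was not tested.

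At E4.5 none of the members passed in the libraries labelled Zbtb17 knockout, where 0.131% of 4576 genes did. Zbtb17 was listed at 0 in all controls there. Dab2 had 8.88, 4.77 and 20.3 TPM in the libraries labelled knockout, against 7.49, 1.28 and 0 TPM in controls. Cubn had 21.6, 0.807 and 4.96 TPM in the libraries labelled knockout, against 27.4, 14.9 and 0 TPM in controls. Libraries of a group differed widely and the groups overlapped, with log2 changes of 1.99 (SE 1.284) for Dab2, -0.30 (SE 1.719) for Cubn, -0.20 (SE 1.33) for Lrp2 and 0.41 (SE 1.089) for Amn.

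In embryoid bodies the direction was the opposite of that with dTAG. The Zbtb17 knockout went with lower levels of the members, and all 4 were called lower on days 2 and 3. Zbtb17 RNA was below wild type in all knockout libraries on each day, but part of it remained. It averaged 0.268, 10.0, 13.4 and 13.5 TPM in knockout bodies on days 0, 1, 2 and 3. Wild-type bodies averaged 0.351, 22.1, 21.9 and 17.7 TPM on the same days. In wild-type bodies Lrp2 had 0.0382 and 0.0325 TPM on day 0, 27.3 and 27.3 TPM on day 1, 26.1 and 26.4 TPM on day 2, and 16.4 and 15.5 TPM on day 3. Cubn had 0.0361 and 0.0226 TPM on day 0, 1.69 and 1.89 TPM on day 1, 14.4 and 13.8 TPM on day 2, and 7.90 and 7.62 TPM on day 3. Lrp2 was thus high on days 1 and 2 and lower on day 3, and Cubn was highest on day 2.

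Amn followed Cubn in wild-type bodies, with 0.0364 and 0 TPM on day 0, 0.958 and 0.737 TPM on day 1, 9.90 and 9.75 TPM on day 2, and 8.48 and 9.03 TPM on day 3. Dab2 had 0.414 and 0.419 TPM on day 0, 3.01 and 2.45 TPM on day 1, 32.5 and 31.2 TPM on day 2, and 23.3 and 28.5 TPM on day 3. All members tested were higher than on day 0 on each later day, but so were most genes: 97.6% of genes passed on day 1 and 91.4% were higher, 97.5% passed on day 2 and 90.7% were higher, and 97.7% passed on day 3 and 90.4% were higher, and the median log2 change of all genes was 2.80 on each of the 3 days, or 0.383 to 0.444 after quantile normalization. Relative to it, the day 1 changes of 1.44 for Cubn and 1.39 for Dab2 were small, and Dab2 on day 1 reversed to -0.887 under quantile normalization, while Lrp2 changed by 4.77. In wild type on day 0 every member was under 1 TPM. Each tested member entered these tests only through the later day, the group in which it was called higher. The day 0 libraries stood apart, with Pou5f1 at 13.4 to 15.7 TPM in wild type on day 0 and at 1790 to 2440 TPM on later days.

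On day 0 the members did not reach the 1 TPM filter and were not tested, while 58.9% of genes passed. Dab2 then had 0.884 and 0.641 TPM in knockout bodies, against 0.414 and 0.419 TPM in wild type. On day 1, 36.4% of 13450 genes passed, 19.9% as lower, and Cubn and Dab2 were lower. Cubn had 0.364 and 0.239 TPM in knockout bodies, against 1.69 and 1.89 TPM in wild type (log2 change -1.10, SE 0.092, limma adjusted p = 4.2e-06). It was under 1 TPM in the knockout libraries and entered the test only through wild type, the higher group. Dab2 had 1.81 and 1.48 TPM in knockout bodies, against 3.01 and 2.45 TPM in wild type. The Dab2 change of -0.496 had a limma adjusted p of 0.00459, of 0.0528 without wild-type replicate 1 of that day and of 0.0549 in a fit of the compared groups alone. Lrp2 had 28.0 and 28.0 TPM in knockout bodies, against 27.3 and 27.3 TPM in wild type, and did not pass (log2 change 0.03, adjusted p = 0.716). Amn, at 0.163 and 0.819 TPM in knockout bodies and 0.958 and 0.737 TPM in wild type, was not tested.

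On day 2, where 42.8% of 13677 genes passed and 24.9% were lower, all 4 members were lower. Cubn had 1.39 and 1.58 TPM in knockout bodies, against 14.4 and 13.8 TPM in wild type. Amn had 2.09 and 1.90 TPM in knockout bodies, against 9.90 and 9.75 TPM in wild type. Dab2 had 7.81 and 7.67 TPM in knockout bodies, against 32.5 and 31.2 TPM in wild type. These 3 genes were at a small share of their wild-type level, whereas Lrp2 had 18.8 and 19.3 TPM in knockout bodies, against 26.1 and 26.4 TPM in wild type. The log2 changes were -2.60 for Cubn, -1.86 for Amn, -1.91 for Dab2 and -0.44 for Lrp2, with limma adjusted p of 9.56e-10, 3.01e-06, 7.9e-08 and 0.000163 in that order.

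On day 3, where 55.2% of 13366 genes passed and 34.3% were lower, all 4 members were again lower. Cubn had 3.58 and 3.51 TPM in knockout bodies, against 7.90 and 7.62 TPM in wild type. Amn had 3.77 and 4.30 TPM in knockout bodies, against 8.48 and 9.03 TPM in wild type. Dab2 had 12.2 and 11.5 TPM in knockout bodies, against 23.3 and 28.5 TPM in wild type. Lrp2 had 11.9 and 11.1 TPM in knockout bodies, against 16.4 and 15.5 TPM in wild type. No libraries overlapped, and the log2 changes were -0.95 for Cubn, -0.96 for Amn, -1.06 for Dab2 and -0.44 for Lrp2, with limma adjusted p of 3.75e-06, 0.000354, 7.56e-06 and 0.000102 in that order. With a pseudocount of 0.1 the Amn value was -1.102 (adjusted p = 0.0598). Replicates of a group were very alike in this table (r from 0.9926 to 0.9947), and with 2 libraries a group the spread they measure may be technical. By limma interaction, the knockout effect was lower for Cubn and Dab2 on day 1 minus day 0 (36.2% of genes passed, 27.9% as lower). It was lower for all 4 members on day 2 minus day 0 (44.7% passed, 33.1% as lower). The same held on day 3 minus day 0 (53.5% passed, 39.3% as lower). Every member was under 1 TPM in both genotypes on day 0 and entered these tests through the later day. The differences from day 0 therefore mostly repeat the effect of the later day. On day 3 minus day 1 the effect was lower for Lrp2 and Dab2 (39% passed, 22.2% as lower). Under quantile normalization the differences of day 2 kept all 4 members, whereas 1 member passed in each of the others: Dab2 on day 1 minus day 0 (-0.79) and on day 3 minus day 0 (-1.172), and Lrp2 on day 3 minus day 1 (-0.339). On day 3 minus day 0 the values were then -0.29 for Cubn (adjusted p = 0.325), -0.356 for Amn (0.391) and -0.308 for Lrp2 (0.0513), and Cubn on day 1 minus day 0 was -0.487 (0.144).

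The rest of the route did not fall as a block. On day 2 Ttr was listed at 0 in knockout bodies and averaged 7.72 TPM in wild type, while Gc, the vitamin D carrier that megalin takes up, averaged 14.0 TPM in knockout bodies and 0.109 TPM in wild type. The protease Ctsb averaged 105 TPM in knockout bodies and 44.2 TPM in wild type. Of lipoprotein receptors, 2 of 11 rose and 8 fell on day 2. On day 3 Apoa1 averaged 0.663 TPM in knockout bodies and 11.7 TPM in wild type. Trophectoderm markers rose, as 12 of 14 genes on day 1 (392 to 411 TPM in knockout bodies, 73.1 to 74.2 TPM in wild type) and 13 of 14 on day 2. Of endoderm markers, 6 of 9 fell and 1 rose on day 1, 9 of 16 fell and 2 rose on day 2, although the list summed to 958 to 966 TPM in knockout bodies and 842 to 875 TPM in wild type on day 2. Gata6 had 1.77 to 2.11 TPM in knockout bodies and 14.4 to 15.1 TPM in wild type on day 1. On day 2 it had 1.2 to 1.49 TPM in knockout bodies and 2.18 to 2.47 TPM in wild type. On day 3 it was higher in knockout bodies, at 1.44 to 1.46 TPM, against 0.825 to 0.947 TPM in wild type. The part of these markers in the members' values was not tested.

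**Figure D2:**
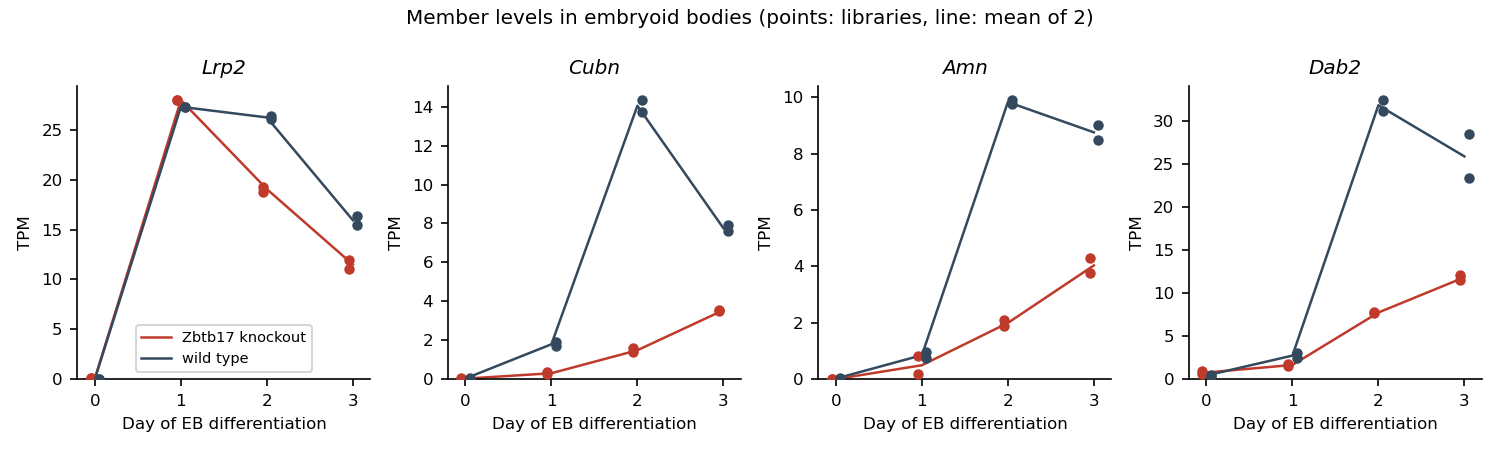
Level of each member in TPM in embryoid bodies on days 0 to 3, with Zbtb17 knockout in red, wild type in dark grey, a point for each library and lines through the group means. Cubn, Amn and Dab2 were highest in wild type on day 2, when Cubn had 1.39 and 1.58 TPM in knockout bodies and 14.4 and 13.8 TPM in wild type.

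Across the screen the members were called more often as higher than as lower, and Dab2 most often. Of 39 knockouts tested, Dab2 was higher in 15 and lower in 6, Lrp2 higher in 10 and lower in 3, Cubn higher in 8 and lower in 2, and Amn higher in 4 and lower in 3. Over all genes, a knockout had 0.364% to 38.8% of genes called (median 6.62%), with medians of 3.98% higher and 2.64% lower. Cubn passed the filter in 30 of the 39 and Lrp2 and Amn in 38. In 15 knockouts no member was called, and there between 0.364% (Hsf2) and 9.7% (the libraries labelled Myc knockout) of all genes were. Those 15 included Ss18 and Smad2 knockouts and the libraries labelled Ascl2 knockout, with 2.53%, 2.26% and 6.86% of genes called. The median change of all genes lay between -0.318 and 0.238 in these comparisons. The other knockout, Aurkb, was given as values with no test, because its libraries were nearly identical (r from 0.9984 to 0.9986, the next pair at 0.9919). It averaged 0.00546 TPM of Cubn, 0.0324 TPM of Amn, 3.01 TPM of Lrp2 and 7.67 TPM of Dab2.

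Control levels of the members varied by batch, which limits what a change can mean in each. Group means in control batches ran from 0.916 to 6.49 TPM for Lrp2, from 0 to 24.6 TPM for Cubn, from 1.05 to 132 TPM for Amn and from 4.03 to 262 TPM for Dab2. Batch 3 controls held the highest mean of all 4. In that batch Dab2 had 245 to 281 TPM and the endoderm list summed to 1920 to 2000 TPM, and none of the Atrx, Cbx2, Cbx7, Jarid2 and Rnf2 knockouts of that batch had a member called in the shared fit, where 0.959% to 3.38% of genes were. Members were called in each of them when a knockout and its controls were fitted alone, where the share of all genes called was also larger, at 25.4% for Atrx, 15.6% for Cbx2, 8.19% for Cbx7, 12.2% for Jarid2 and 17.3% for Rnf2. Amn had 69.0 to 80.4 TPM in Cbx2, 68.9 to 71.6 TPM in Cbx7, 75.9 to 82.1 TPM in Jarid2 and 99.5 to 118 TPM in Rnf2 knockouts, and 165 to 183 TPM in Atrx knockouts, against 126 to 135 TPM in controls. No knockout library overlapped a control there, and the limma adjusted p of these fits was 9.18e-05, 1.24e-05, 0.000228, 0.0255 and 0.00372 in the same order. The other calls of those fits were Lrp2 (0.955) and Dab2 (0.668) in Atrx, Dab2 in Cbx7 (0.247) and Rnf2 (-0.308), and Cubn in Jarid2 (-0.896). The Lrp2 call in Atrx also came with no filter, with the filter at 5 TPM and with library weights. For Cubn, Amn and Dab2 every batch 3 control library lay above all control libraries of the other batches. The highest of those other libraries had 9.01 TPM of Cubn, 20.7 TPM of Amn and 121 TPM of Dab2. For Lrp2 the batch 3 controls overlapped those of batch 8 (3.28 to 8.55 TPM). Within a batch the comparison was made with its own controls.

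**Figure D3:**
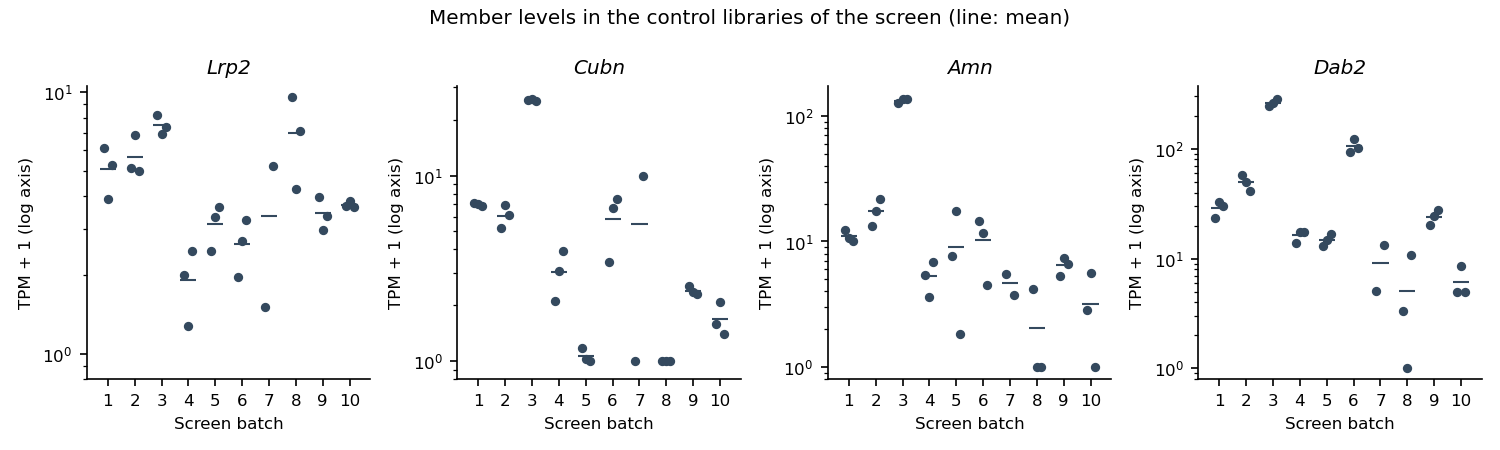
Level of each member in the wild-type control libraries of the 10 screen batches, as TPM + 1 on a log axis, with a point for each library. Batch 3 controls had the highest mean of each member, with Dab2 group means from 4.03 to 262 TPM across batches, although 1 Lrp2 library of batch 8 stood higher at 8.55 TPM.

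Both knockouts with all 4 members higher were Ets2 and Chd4. Ets2 is a transcription factor of the trophoblast, and 23.4% of genes passed in its knockout. Ets2 RNA averaged 7.04 TPM in Ets2 knockouts and 11.99 TPM in controls, with overlap. Lrp2 had 12.2, 11.99 and 14.8 TPM in Ets2 knockouts, against 4.12, 5.87 and 4.002 TPM in controls. Cubn had 22.2, 25.9 and 19.7 TPM in Ets2 knockouts, against 4.19, 5.93 and 5.15 TPM in controls. Every Ets2 knockout library lay above every control for both receptors. Amn had 223, 130 and 179 TPM in Ets2 knockouts, against 12.2, 16.4 and 20.7 TPM in controls. Dab2 had 372, 270 and 309 TPM in Ets2 knockouts, against 57.0, 48.9 and 39.9 TPM in controls. No libraries overlapped for any of the 4, and the log2 changes were 1.32, 1.96, 3.35 and 2.68 for Lrp2, Cubn, Amn and Dab2, with limma adjusted p of 0.000464, 2.28e-06, 0.000147 and 2.36e-10 in that order. The Lrp2 call ended when Ets2 knockouts and controls were fitted alone (adjusted p = 0.114), which left 3 members. Lrpap1 averaged 291 TPM in Ets2 knockouts and 60.5 TPM in controls, and Apoa1 166 TPM in Ets2 knockouts and 5.93 TPM in controls. Endoderm markers were higher as 6 of 13 genes (2220 to 2300 TPM in Ets2 knockouts, 816 to 849 TPM in controls), and their part was not tested.

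Chd4 is the remodelling ATPase of the NuRD complex, and 7.4% of genes passed in its knockout. Chd4 RNA averaged 6.17 TPM in Chd4 knockouts and 6.23 TPM in controls, with overlap. Cubn had 16.4, 14.9 and 13.8 TPM in Chd4 knockouts, against 0.591, 1.09 and 0.393 TPM in controls. Amn had 22.4, 19.8 and 29.3 TPM in Chd4 knockouts, against 1.83, 4.65 and 0 TPM in controls. Dab2 had 116, 86.0 and 93.3 TPM in Chd4 knockouts, against 3.94, 7.57 and 3.97 TPM in controls. Lrp2 had the smallest change and was also separated, with 12.5, 7.43 and 9.25 TPM in Chd4 knockouts, against 2.66, 2.83 and 2.64 TPM in controls. The log2 changes were 3.26 for Cubn, 3.29 for Amn, 4.05 for Dab2 and 1.504 for Lrp2, with limma adjusted p of 1.08e-13, 0.000433, 1.68e-18 and 0.000134 in that order. The endoderm list did not sum to more here (743 to 813 TPM in Chd4 knockouts, 701 to 990 TPM in controls), although 8 of its 15 genes rose and 1 fell. Parietal endoderm genes rose as 10 of 11 (1770 to 1870 TPM in Chd4 knockouts, 101 to 112 TPM in controls), as did 5 of 5 giant cell genes (2390 to 3400 TPM in Chd4 knockouts, 5.61 to 7.52 TPM in controls). The part of these cells in the result was not tested.

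The libraries labelled Nelfb knockout parted the members. Nelfb, a subunit of the complex that pauses RNA polymerase II, averaged 18.6 TPM in them and 10.9 TPM in controls, so the RNA goes against the label. Here 21.4% of genes passed. Lrp2 had 40.3, 30.4 and 41.5 TPM in the libraries labelled Nelfb knockout, against 5.14, 2.91 and 4.26 TPM in controls. Cubn had 44.7, 44.0 and 42.2 TPM in the libraries labelled Nelfb knockout, against 6.10, 6.06 and 5.83 TPM in controls. These were the highest Lrp2 and Cubn means of any knockout of the screen. Dab2 had 255, 288 and 294 TPM in the libraries labelled Nelfb knockout, against 22.3, 31.8 and 29.0 TPM in controls. Amn went the other way, with 6.32, 0 and 2.12 TPM in the libraries labelled Nelfb knockout, against 11.2, 9.63 and 9.12 TPM in controls. The log2 changes were 2.92 for Lrp2, 2.67 for Cubn and 3.30 for Dab2, with limma adjusted p of 5.58e-14, 1.8e-10 and 3.14e-14, against -1.95 (SE 0.716, limma adjusted p = 0.0385) for Amn. The Amn call was lost in 5 of 6 fits without 1 library, with adjusted p up to 0.312. Of endoderm markers 9 of 13 rose and 1 fell (2060 to 2510 TPM in the libraries labelled Nelfb knockout, 783 to 850 TPM in controls), and of parietal markers 9 of 10 rose (2820 to 3180 TPM in those libraries, 449 to 491 TPM in controls). Their part was not tested.

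Lrp2, Cubn and Dab2 were higher together, with Amn not called, in 3 further knockouts. Mcrs1, a subunit of chromatin complexes, had log2 changes of 2.09 for Lrp2, 2.36 for Cubn and 3.00 for Dab2, where 17% of genes passed. The Lmo2 knockout had changes of 1.40, 1.69 and 1.27 in that order, where 5.1% passed, and its Dab2 change missed the threshold when control replicate 3 was left out (adjusted p = 0.0731). The Hdac1 Hdac3 double knockout, which removes a pair of histone deacetylases, had changes of 1.57, 1.97 and 3.84, where 7.5% passed, with Dab2 at 81.1, 78.2 and 93.7 TPM in the double knockouts, against 3.94, 7.57 and 3.97 TPM in controls. Parietal endoderm markers summed to 2540 to 2790 TPM in Mcrs1 knockouts, against 258 to 307 TPM in their controls, to 710 to 794 TPM in Lmo2 knockouts, against 258 to 307 TPM in the same controls, and to 787 to 923 TPM in Hdac1 Hdac3 double knockouts, against 101 to 112 TPM in theirs.

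Dab2 also rose alone or with 1 receptor. The largest log2 change of any member in the screen was that of Dab2 in the Gtf2b knockout, which removes a general transcription factor: 146, 123 and 127 TPM in Gtf2b knockouts, against 3.94, 7.57 and 3.97 TPM in controls (log2 change 4.48, limma adjusted p = 1.93e-21). Lrp2 rose beside it by 1.49, where 15.4% of genes passed. Gtf2b RNA averaged 19.5 TPM in Gtf2b knockouts and 27.2 TPM in controls, with overlap. In the libraries labelled Cxxc1 knockout Dab2 changed by 2.41 and Lrp2 by 1.58, where 21.4% passed and the parietal list summed to 719 to 833 TPM, against 258 to 307 TPM in controls. In the Wt1 knockout, where 0.537% of genes passed, Dab2 had 117, 102 and 116 TPM in Wt1 knockouts, against 19.1, 23.3 and 26.5 TPM in controls (log2 change 2.24, limma adjusted p = 1.14e-06). Endoderm genes rose there as 5 of 14 (917 to 977 TPM in Wt1 knockouts, 623 to 630 TPM in controls). The Ssrp1 knockout had Dab2 higher by 1.57 (limma adjusted p = 0.000677), where 6.62% of genes passed. Dab2 changes of 1.504 in Fos, 0.959 in Zfp57 and 1.27 in the libraries labelled Ovol2 knockout had limma adjusted p of 0.00338, 0.0379 and 0.0478 and were lost in 1, 4 and 6 of 6 fits without 1 library, so the Ovol2 call held in none of them. Of all genes 1.39%, 16.8% and 0.663% passed in those 3 comparisons, in the same order.

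In the screen's batch 6 the receptors were higher in the libraries labelled Zbtb17 knockout. Zbtb17 RNA averaged 6.93 TPM in those libraries and 2.65 TPM in controls, with overlap, and 30.4% of genes passed. Lrp2 had 9.43, 23.0 and 14.6 TPM in the libraries labelled Zbtb17 knockout, against 0.968, 1.70 and 2.24 TPM in controls (log2 change 2.61, limma adjusted p = 6.5e-12). Cubn had 13.7, 18.1 and 13.2 TPM in the libraries labelled Zbtb17 knockout, against 2.43, 5.67 and 6.52 TPM in controls (log2 change 1.51, limma adjusted p = 0.000201). The Cubn call ended in a fit of the compared groups alone (adjusted p = 0.177). Both receptors were separated from controls, whereas Amn (log2 change -0.64) and Dab2 (0.477) did not pass. Giant cell genes summed to 2580 to 3870 TPM in the libraries labelled Zbtb17 knockout and 201 to 224 TPM in controls, and their part was not tested. The screen, the dTAG table and the EB table were not tested against each other.

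Amn was called higher in 2 more knockouts. The Ezh2 knockout, which removes the methyltransferase of Polycomb repressive complex 2, had Amn at 49.5, 13.3 and 47.6 TPM, against 6.65, 16.6 and 0.846 TPM in controls, where 26.8% of genes passed. The groups overlapped, and the log2 change of 2.38 (limma adjusted p = 0.00759) was 1.497 with an adjusted p of 0.162 without control replicate 3. Dab2 was well separated in the same libraries, with 127, 160 and 122 TPM in Ezh2 knockouts, against 12.04, 13.8 and 15.9 TPM in controls (log2 change 3.20, limma adjusted p = 1.86e-13). Of 15 endoderm genes 12 rose (4450 to 4930 TPM in Ezh2 knockouts, 980 to 1110 TPM in controls). The Otx2 knockout, which removes an epiblast and anterior patterning factor, had Amn at 32.4, 21.8 and 29.1 TPM, against 4.41, 2.58 and 5.88 TPM in controls, where 4.42% of genes passed. Lrp2 changed by 1.55 and Dab2 by 1.36 beside the Amn change of 2.48 (limma adjusted p = 0.0244), and the Amn call was lost in 4 of 6 fits without 1 library.

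**Figure D4:**
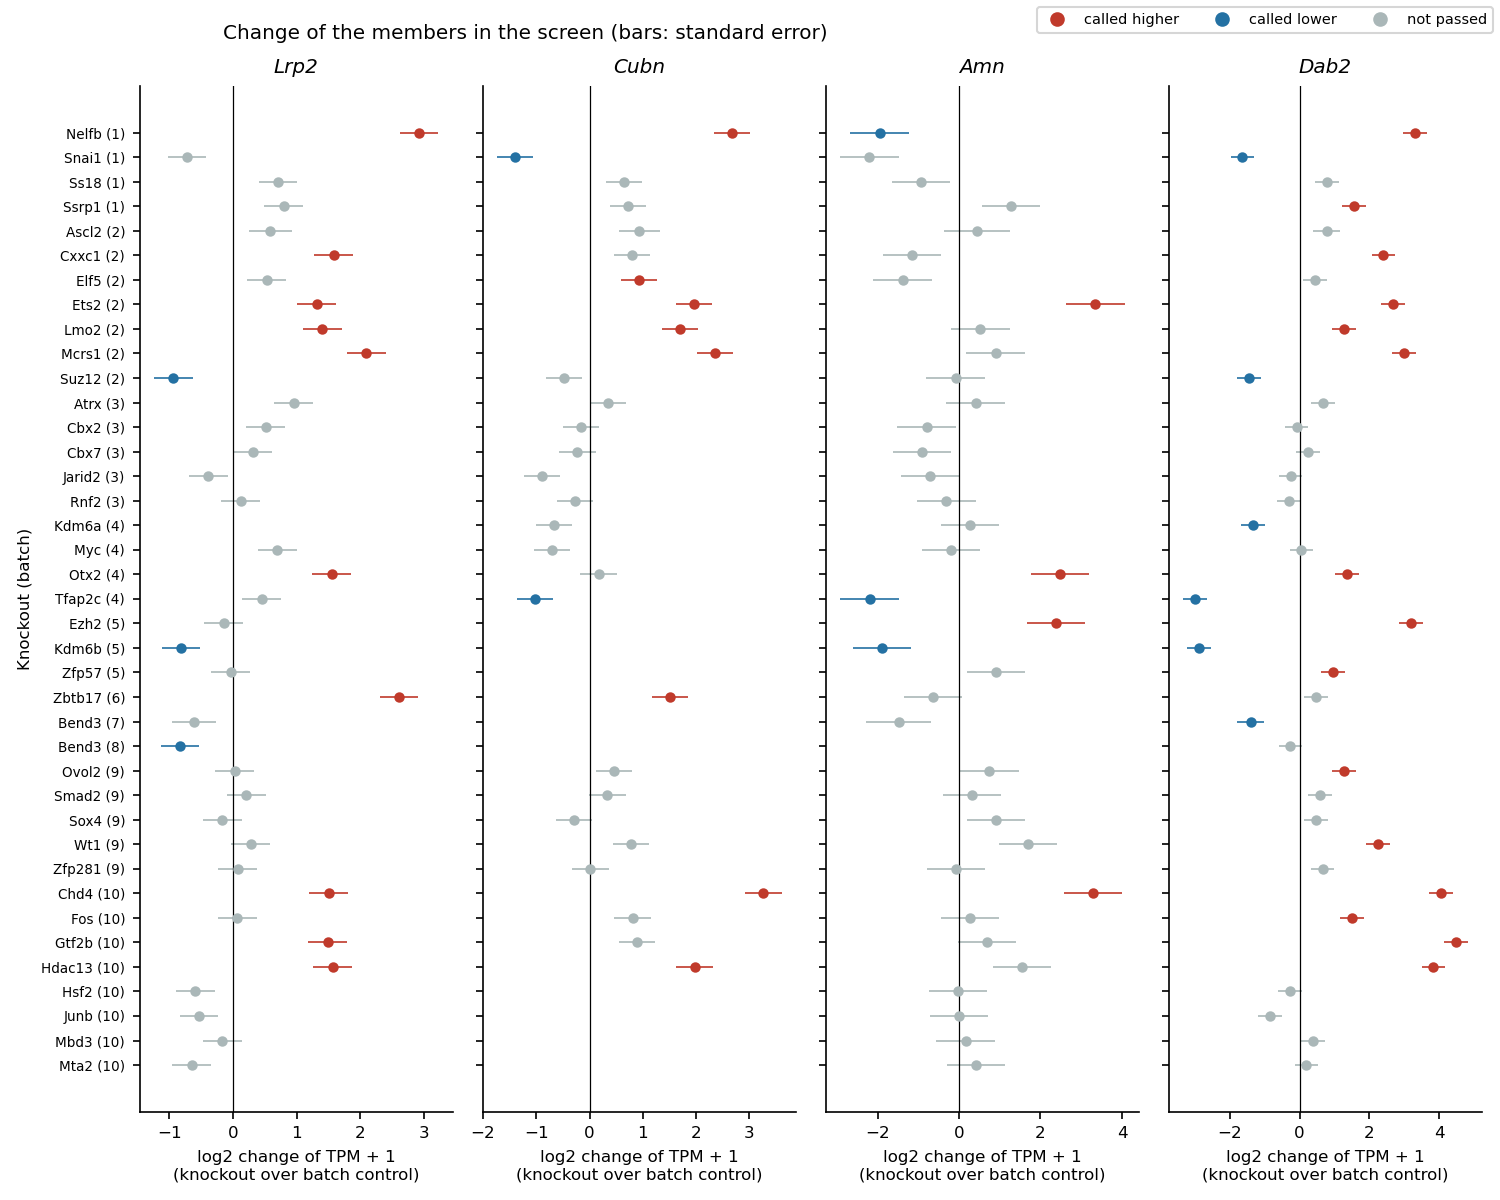
Log2 change of each member, on the log2(TPM + 1) scale with SE bars, in each of the 39 tested knockouts against controls of its own batch, with called higher values in red, called lower values in blue and the others in grey. Dab2 was called higher in 15 and lower in 6 knockouts, and its largest change was 4.48 in the Gtf2b knockout.

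Lower calls were fewer. In the Tfap2c knockout, which removes a trophoblast and germ line factor, 13.4% of genes passed and 3 members were lower. Dab2 had 2.40, 0.827 and 0.370 TPM in Tfap2c knockouts, against 13.02, 16.6 and 16.4 TPM in controls (log2 change -2.99, limma adjusted p = 8.22e-12). Amn had 0.396, 0 and 0 TPM in Tfap2c knockouts, against 4.41, 2.58 and 5.88 TPM in controls (log2 change -2.19, limma adjusted p = 0.0262), and Cubn changed by -1.03 (limma adjusted p = 0.0292). Amn and Cubn were under 1 TPM in every Tfap2c knockout library. Both entered the test only through the controls, the group in which they were higher. The endoderm ligands Apoa1 and Ttr fell beside the members, to 0.0544 and 0.0144 TPM in Tfap2c knockouts, against 20.7 and 9.81 TPM in controls, although the whole endoderm list summed to 1190 to 1250 TPM in Tfap2c knockouts and 419 to 527 TPM in controls. Parietal markers summed to 117 to 148 TPM in Tfap2c knockouts and 180 to 204 TPM in controls.

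Kdm6b is 1 of the demethylases that GSK-J4 inhibits, and its knockout had members moving the other way from GSK-J4 at E5.0. Kdm6b RNA averaged 4.29 TPM in Kdm6b knockouts and 8.06 TPM in controls, with overlap. Dab2 had 1.07, 0.794 and 1.17 TPM in Kdm6b knockouts, against 12.04, 13.8 and 15.9 TPM in controls (log2 change -2.89, limma adjusted p = 2.41e-11), where 22.7% of genes passed. Lrp2 changed by -0.814 (limma adjusted p = 0.0412) and Amn by -1.89 (limma adjusted p = 0.0442, with overlap), and each of those calls was lost in 4 of 6 fits without 1 library. The median of all genes was -0.22 there. Endoderm markers summed to 418 to 466 TPM in Kdm6b knockouts and 980 to 1110 TPM in controls, and giant cell markers to 13 to 17.3 TPM in Kdm6b knockouts and 2040 to 2550 TPM in controls. Kdm6a, the other target of the drug, had Dab2 at 3.56, 7.14 and 6.20 TPM in knockouts, against 13.02, 16.6 and 16.4 TPM in controls (log2 change -1.33, limma adjusted p = 0.00374, and 0.0655 without knockout replicate 1), where 9.25% of genes passed. The screen and the drug were not tested against each other.

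The remaining lower calls were these. In the Suz12 knockout Dab2 had 17.1, 17.8 and 15.7 TPM, against 57.0, 48.9 and 39.9 TPM in controls (log2 change -1.46, limma adjusted p = 0.000454), and Lrp2 changed by -0.934 (limma adjusted p = 0.0168), where 22.1% of genes passed. In the libraries labelled Snai1 knockout, where 1.49% of genes passed, Dab2 had 8.47, 9.35 and 6.77 TPM, against 22.3, 31.8 and 29.0 TPM in controls (log2 change -1.64, limma adjusted p = 0.000971). Cubn changed by -1.40 there (limma adjusted p = 0.00836), and parietal markers fell as 7 of 9 genes (125 to 167 TPM in those libraries, 449 to 491 TPM in controls). In the libraries labelled Bend3 knockout, Dab2 changed by -1.40 in batch 7 and Lrp2 by -0.83 in batch 8, both with overlapping groups, and both calls were lost in fits without 1 library. Of all genes 38.8% passed in batch 7 and 28.5% in batch 8. Elf5 had the 1 remaining higher call, Cubn at 0.925 (limma adjusted p = 0.0335, up to 0.167 without 1 library), where 25.1% of genes passed. Over the screen, leaving out 1 library ended 3 of 13 Lrp2 calls, 3 of 10 Cubn calls, 5 of 7 Amn calls and 7 of 21 Dab2 calls, among them every lower call of Lrp2, Cubn and Amn. Fits of a knockout and its controls alone ended 14 calls, named here by their labels: Lrp2 in Ets2, Otx2, Suz12, Kdm6b and Bend3 (batch 8), Cubn in Elf5, Tfap2c and Zbtb17, Amn in Nelfb, Ezh2 and Kdm6b, and Dab2 in Fos, Zfp57 and Bend3 (batch 7). They added 16, which beside those of batch 3 were Amn in Mcrs1, Ssrp1, Wt1 and the libraries labelled Snai1 knockout, and Dab2 in Smad2 and the libraries labelled Ascl2 knockout. A pseudocount of 0.1 ended 16 calls, which were Lrp2 in Bend3 (batch 8), Cubn in Elf5, Lmo2 and Snai1, Amn in Nelfb, Otx2, Ezh2 and Kdm6b, and Dab2 in Snai1, Ssrp1, Lmo2, Kdm6a, Otx2, Zfp57, Ovol2 and Fos. The part of the marker lists in any of the screen's values was not tested.

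Amn and its partner Cubn were not held in a fixed proportion. Where Cubn averaged at least 1 TPM, the ratio of the Amn mean to the Cubn mean, both in TPM, was 0.0645 in the libraries labelled Nelfb knockout, 0.691 in PrE controls and 0.7 in day 2 wild-type bodies. It was 1.81 in Suz12 Eed knockout PrE, 5.54 with GSK-J4 at E4.5, 6.17 with GSK-J4 at E5.0, 7.84 in Ets2 knockouts, 10.9 in Ezh2 knockouts and 11.9 in Otx2 knockouts. Their own controls had 4.48 for GSK-J4 at E4.5, 3.03 for GSK-J4 at E5.0, 3.23 for Ets2 and 2.11 for Otx2. Controls of the libraries labelled Nelfb knockout had 1.67, and those of Ezh2 had Cubn under 1 TPM. Ezh2 knockouts ranged from 0.700 to 4.92 TPM for Cubn and from 13.3 to 49.5 TPM for Amn. Lrp2 and Cubn varied in proportion as well. The ratio of the Lrp2 mean to the Cubn mean was 0.857 in the libraries labelled Nelfb knockout, 0.917 with GSK-J4 at E5.0, and 0.977 in PrE controls. It was 0.264 in batch 3 controls, 1.94 in Otx2 knockouts and 4.33 in Gtf2b knockouts, and in embryoid bodies 12.8 in day 2 knockouts and 15.3 in day 1 wild type.

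**Figure D5:**
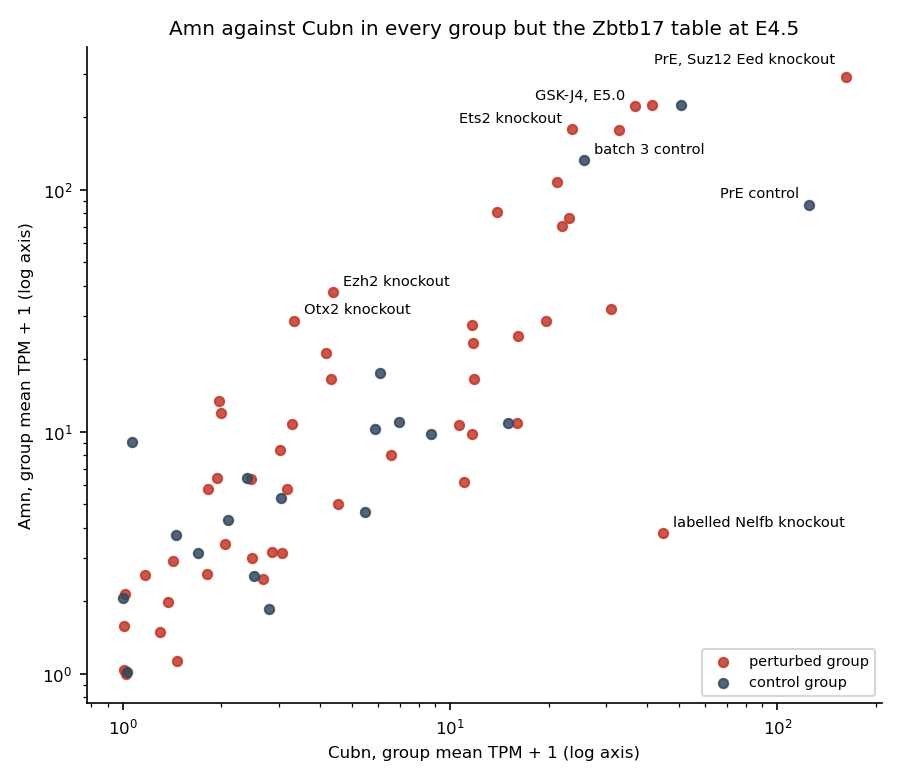
Mean Amn level against mean Cubn level for each group of the series except those of the Zbtb17 E4.5 table, as TPM + 1 on log axes, with perturbed groups in red and control groups in dark grey. The libraries labelled Nelfb knockout lay low for Amn at 2.81 TPM with Cubn at 43.6 TPM, and Ets2 knockouts high at 177 TPM with Cubn at 22.6 TPM.

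The genes most like each member over the screen were named by Pearson correlation of log2(TPM + 1), less the mean of the batch's controls, over 146 libraries and 13220 genes. The points share batches and controls, so the values are descriptions. Lrp2 was most like Lrpap1 (0.709), Ctsl (0.688), Hexa (0.662), Cubn (0.662) and Sparc (0.653), with Dab2 next. Cubn was most like Ctsl (0.829), Sparc (0.81), Col4a1 (0.793), Col4a2 (0.778) and Flrt3 (0.773). Dab2 was most like Lrpap1 (0.843), Flrt3 (0.834), Srgn (0.814), Ctsl (0.803) and Col4a1 (0.784). Amn stood apart with Ctsz (0.626), Srgn (0.597), Pla2g12b (0.568), Dab2 (0.553) and Pga5 (0.541), and its correlation was 0.434 with Cubn and 0.177 with Lrp2.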

How the data were processed

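RNA was measured by Smart-seq2 in 200 mouse libraries. The submitters' processing notes name the build mm10, Cufflinks, StringTie 2.2.1 and HISAT2 2.2.1, with the role of each not given in the sources used here. The authors deposited 7 tables of TPM values per gene, with 984852 to 993452 TPM per library, so read depth is unknown. Strand use in counting is not given in the sources used here.

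Groups were taken from the labels. Each comparison was tested with limma 3.58.1 (R 4.3.3, empirical Bayes with trend) on log2(TPM + 1), over genes that reached 1 TPM in a number of the compared libraries no lower than the size of the smaller group, with Benjamini-Hochberg adjustment over all genes of the comparison and a threshold of 0.05. A log2 change on this scale understates changes of low genes. A gene under 1 TPM in every library of a group could enter a test only through the other group. The Suz12 Eed, EB and screen tables were each fitted as a whole, the others alone, and screen knockouts were set against controls of their batch. Libraries more alike than any other pair of their table (PrE controls 1 and 2, and Aurkb 1 to 3) were averaged. The labels call replicates biological; p-values measure the spread between these libraries. The scripts were tested on simulated data.

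The EB rows were read in the screen's order: levels correlated with those of the screen at 0.9044 in that order and at 0.1054 at most in shifted orders, and 50 of 50 windows of rows fitted best unshifted. Replicate numbers were judged to pair samples where, with 3 pairs, every correlation of deviations was over 0.1. That held in 1 of 52 comparisons, Suz12 Eed Epi (0.101 to 0.238). The numbers come from the labels.

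The members, the pathway and marker lists and the tests were chosen with earlier results of these data known. Named pathway genes were up to 4 called genes per list and direction with the largest change, without overlap and with a mean of at least 5 TPM in the higher group. A named gene of the receptor list is not reported here. Named knockouts were those with a member called. Promoters came from RefSeq GRCm38.p6 and positions from GENCODE vM21. Alternatives were a pseudocount of 0.1, no filter, a filter at 5 TPM, quantile normalization, library weights, a replicate block, fits of the groups compared alone, averaged libraries counted separately and leaving out each library.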

Additional observations from a re-analysis of the deposited data

Results flagged for a closer look

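The following values were singled out because an effect differed between groups by a test of the difference itself, an interaction term in limma with adjustment over all genes. In embryoid bodies the Zbtb17 knockout effect on day 1 minus that on day 0 was -1.09 for Cubn (adjusted p = 7.67e-05) and -0.807 for Dab2 (adjusted p = 0.00202), where 36.2% of genes passed. For day 2 minus day 0 it was -0.515 for Lrp2 (adjusted p = 0.00068), -2.59 for Cubn (5.43e-08), -1.83 for Amn (7.57e-05) and -2.221 for Dab2 (9.59e-07), where 44.7% passed. For day 3 minus day 0 it was -0.512 for Lrp2 (adjusted p = 0.000486), -0.937 for Cubn (8.76e-05), -0.93 for Amn (0.005) and -1.372 for Dab2 (2.09e-05), where 53.5% passed. Under quantile normalization the calls of Cubn on day 1 minus day 0 and of Lrp2, Cubn and Amn on day 3 minus day 0 ended (adjusted p 0.0513 to 0.391). On day 0 every member was under 1 TPM in both genotypes, so these differences mostly repeat the effect of the later day.

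For day 3 minus day 1 the difference was -0.473 for Lrp2 (adjusted p = 0.00124) and -0.565 for Dab2 (adjusted p = 0.0137), where 39% of genes passed; without wild-type replicate 2 of day 1 or of day 3, or knockout replicate 1 of day 1, the Dab2 adjusted p was 0.0559 to 0.0603. In the Suz12 Eed double knockout the effect in PrE minus that in Epi was 1.86 for Amn (adjusted p = 0.0195) and 0.981 for Dab2 (adjusted p = 0.0357). PrE controls 1 and 2 were averaged, so leaving out that sample, or control replicate 3, left a single PrE control sample. The differences were then 2.025 and 1.696 for Amn and 1.018 and 0.943 for Dab2, in that order. Leaving out PrE knockout replicate 3 ended the Amn call (limma adjusted p = 0.0601). The Dab2 call ended without Epi control replicate 2 or 3, Epi knockout replicate 1, or PrE knockout replicate 2 or 3 (limma adjusted p 0.0623 to 0.0988).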

How the results depend on the processing

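Of the calls of the members, the fits kept 78 of 100 with a pseudocount of 0.1, 95 with no filter, 89 under quantile normalization, 91 with library weights, 77 of 97 with the replicate block, 77 of 93 in fits of the compared groups alone, 84 of 84 with a filter at 5 TPM, 59 of 59 with every library counted separately and 509 of 585 in fits without 1 library. The cause of the changes below was not tested, except that stricter filters test fewer genes.

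With the filter at 5 TPM the difference for Amn between days 3 and 1 was -0.614 and passed, and called members numbered 0 in the day 1 minus day 0 difference, 0 in Suz12 Eed Epi, 1 for wild type on day 1 and 0 for the knockout on day 1. Lower calls in the screen were then 1 for Amn, 1 for Cubn and 0 for Lrp2. With the compared groups alone, Cubn in Suz12 Eed Epi was 0.973 (adjusted p = 0.101) and Dab2 in EB on day 1 -0.496 (0.0549), with 0 and 1 members called, and the screen held 7 higher and 6 lower Amn calls and 0 lower Lrp2 calls. With the replicate block, Cubn in Suz12 Eed Epi was 0.973 (0.0862), Dab2 on day 3 minus day 1 -0.565 (0.056) and Dab2 on day 1 -0.496 (0.0542), with 0, 1 and 1 members called, and lower calls in the screen numbered 6 for Amn, 1 for Cubn and 0 for Lrp2. The block ended 17 calls of the screen, among them Lrp2 in Ets2 (0.206) and Zbtb17 of batch 6 (0.102) and Cubn in that Zbtb17 comparison (0.283), and added 13.

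With library weights, values that passed in neither fit changed sign: Amn in Mbd3 -0.065 and Suz12 Eed Epi 0.009, Cubn in Zfp281 -0.096, Dab2 in Suz12 Eed Epi 0.086, and Lrp2 in Ovol2 -0.052, Sox4 0.015 and Zfp57 0.046. The PrE minus Epi difference of Dab2 was 0.824 (0.0656), with 1 member called, and Cubn had 6 lower calls in the screen. With no filter the PrE minus Epi difference was 1.86 (0.0646) for Amn and 0.981 (0.0721) for Dab2, with 0 called, Amn with dTAG was 2.465 (0.162) and Amn had 1 lower call in the screen.

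With a pseudocount of 0.1, Amn was 1.871 (0.0559) for PrE minus Epi, -0.878 (0.253) for day 3 minus day 0, 4.625 (0.0793) with dTAG and -1.102 (0.0598) in EB on day 3; Dab2 was 0.99 (0.0535) for PrE minus Epi and -0.417 (0.221) for day 3 minus day 1. Now passing were Cubn at -1.473 for PrE minus Epi and 1.141 for day 3 minus day 1, and Lrp2 at -0.44 for day 1 minus day 0. Uncalled values reversed for Amn in Hsf2 (0.673) and Junb (0.679), Cubn at Zbtb17 E4.5 (0.424) and Dab2 in Bend3 of batch 8 (0.439). Called members numbered 1 for PrE minus Epi, and the screen held 2 higher Amn, 1 lower Cubn and 9 higher Dab2 calls.

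Under quantile normalization, Amn was -0.356 (0.391) for day 3 minus day 0 and 2.302 (0.0623) with dTAG, Cubn -0.487 (0.144) for day 1 and -0.29 (0.325) for day 3 minus day 0, Dab2 -0.382 (0.196) for day 3 minus day 1 and Lrp2 -0.308 (0.0513) for day 3 minus day 0. Dab2 in wild type on day 1 reversed to -0.887. Uncalled values reversed for Amn in Junb (0.054), Kdm6a (-0.048), Zfp281 (0.027) and Zbtb17 E4.5 (-0.199), Dab2 in Myc (-0.387) and Suz12 Eed Epi (0.043), and Lrp2 in Bend3 of batch 7 (0.002), Zfp57 (0.08) and day 1 minus day 0 (0.031). Called members were 1 for each of the day 1 minus 0, 3 minus 0 and 3 minus 1 differences, and the screen held 4 lower Cubn and 1 lower Lrp2 calls.

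Leaving out 1 library, or the averaged PrE controls 1 and 2 as 1 sample, gave these ranges. For Amn they were 1.454 to 2.088 for PrE minus Epi, -0.936 to -0.291 for day 3 minus day 1, -0.389 to 0.86 in Fos, -0.167 to 0.229 in GSK-J4 E4.5, -0.344 to 0.29 in Suz12 Eed Epi, 1.436 to 1.955 in Suz12 Eed PrE, -0.298 to 0.089 in Suz12, 2.053 to 3.29 with dTAG, -0.123 to 1.477 at Zbtb17 E4.5 and -1.622 to 0.634 in Zbtb17 of batch 6. For Cubn they were -0.069 to 0.378 in Otx2 and -1.765 to 0.647 at Zbtb17 E4.5. For Dab2 they were -1.124 to 0.588 in Bend3 of batch 8, 0.772 to 1.138 for PrE minus Epi, -0.703 to -0.427 for day 3 minus day 1, -0.219 to 0.147 in Suz12 Eed Epi, 0.818 to 1.001 in Suz12 Eed PrE and -0.604 to -0.388 in EB on day 1. For Lrp2 they were -1.499 to 0.285 in Bend3 of batch 7, -0.059 to 0.215 in Fos, -0.07 to 0.139 in Ovol2, -0.075 to 0.034 in Suz12 Eed Epi, -1.05 to 0.599 at Zbtb17 E4.5 and -0.202 to 0.178 in Zfp57. Called members ranged from 0 to 2 for PrE minus Epi and in Suz12 Eed PrE, and from 1 to 2 for day 3 minus day 1 and in EB on day 1. With 2 or 3 libraries a group and depth unknown, levels near 0 TPM, as those of Amn and Cubn in many controls, limit what could be called.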
